A study of Mus musculus with 6 samples.

Results

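Natural antisense transcripts are RNAs read from the DNA strand opposite a protein-coding gene, usually overlapping it. The set described here is every long noncoding RNA (lncRNA) transcript that the lncRNA table pairs with coding genes only as natural antisense, with at least 0.1 FPKM (fragments per kilobase of transcript, scaled to the size of the library) in at least 3 of the 6 libraries. Genes of the small nucleolar RNA host family (Snhg) were left out. In all, 741 transcripts qualified, out of 31550 in the table and 4955 that passed the same level threshold. A further 3017 natural antisense transcripts lay below the threshold and were not tested, 5 above it were Snhg transcripts, and 140 above it were natural antisense in some pairings only. At the edge of the threshold, the library ranked 3 by level held 0.1003 FPKM for AK146570 and 0.0998 FPKM for ENSMUST00000124795, the next transcript below. The threshold took no account of group, so a transcript present in 1 group alone passed only by being at 0.1 FPKM or more in all 3 libraries of that group.

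The libraries came from cultured vascular smooth muscle cells of the aorta of C57BL/6 mice, the contractile cells of the vessel wall, kept in medium with 10% fetal bovine serum. The 3 ADV libraries are labelled Myocd knockdown by adenovirus and the 3 Ctrl libraries are labelled as cells given negative control virus, both for 48 h. The design text calls the control cells wildtype, so it is not certain that they carried a virus. Ribosomal RNA was depleted and libraries were made with a stranded kit, per the labels, but whether strand was used in counting is not given in the sources used here; without it, reads of a gene and of its antisense partner cannot be told apart. Separate animals or cultures are not stated for the 3 libraries of each group, so the tests below weigh differences against a spread that could be technical.

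Antisense transcripts are known to act on the gene they overlap in several ways: by collision of polymerases, by recruiting chromatin modifiers, or by pairing with the sense RNA and changing its splicing, stability or translation. Some, such as Kcnq1ot1, silence whole chromosome regions. Most are made at low levels, and many start close to the promoter of the sense gene.

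Per library, 7528146 to 9793785 fragments fell on coding genes and 1028764 to 1464415 on lncRNA transcripts. Myocd, which encodes the serum response factor coactivator myocardin, ran against the labels, at 131.7, 130.1 and 145.5 FPKM in the ADV libraries and at 0.0355, 0 and 0.125 FPKM in the Ctrl libraries; every difference below is that of the libraries labelled ADV minus those labelled Ctrl. Of 9 smooth muscle markers, Acta2 was at 332.3 to 346.2 FPKM in ADV against 63.1 to 71.5 in Ctrl, while the defining myosin Myh11 stayed below 0.1 FPKM in every library. The whole list, which includes Myocd itself, summed to 649 to 692 FPKM in ADV and 229 to 254 in Ctrl. Acta2 and Myocd held most of that difference. Of the others, Tagln averaged 7.52 FPKM in ADV against 0.637 in Ctrl, Des 124 against 108, Mylk 7.74 against 7.31 and Smtn 56.5 against 57.6. Mesothelial markers summed to 302 to 325 against 320.0 to 352 FPKM, nearly all from Krt19 and Msln, and fibroblast markers to 59.5 to 70.7 against 59.7 to 70.2. Endothelial markers summed to 1.3 to 2.34 FPKM in ADV against 0.468 to 1.04 in Ctrl, and macrophage markers to 20.6 to 24.5 against 22.4 to 26.4. The endothelial difference came mainly from Vwf, which averaged 1.24 FPKM in ADV against 0.185 in Ctrl. Pecam1, Cdh5, Kdr and Tie1 averaged lower in ADV and Tek higher, all with means below 0.5 FPKM. In bulk RNA, fewer cells of a type and less RNA per cell cannot be told apart, and the part of these markers in the results below was not tested.

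The sequence in front of a transcript's start shows how an antisense RNA is placed against its sense gene. By transcript accession or symbol, 138 members, from 105 genes, were matched to a RefSeq promoter window (GRCm38.p6), which holds 250 bases before and 50 after the start; 603 were not matched. The 6 windows below are shown because they cover the arrangements the results turn on. They are 2 transcripts that start in front of the gene they are paired with (AA543186 and 1700052K11Rik), 3 that start within its first 1000 bases (Gm17315, 1110054M08Rik and 4930414L22Rik) and 1 that starts beyond its end (5033417F24Rik). Each is printed 5′ to 3′ on the antisense transcript's own strand, with the first 50 transcribed bases in capitals.
AA543186, paired with Man1b1: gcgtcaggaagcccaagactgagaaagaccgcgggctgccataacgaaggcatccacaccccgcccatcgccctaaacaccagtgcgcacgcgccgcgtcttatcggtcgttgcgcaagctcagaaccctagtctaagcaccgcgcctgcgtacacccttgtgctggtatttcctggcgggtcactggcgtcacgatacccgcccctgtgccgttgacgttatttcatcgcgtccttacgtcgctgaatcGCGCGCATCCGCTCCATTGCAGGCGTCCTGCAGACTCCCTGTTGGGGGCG
1700052K11Rik, paired with Tlk2: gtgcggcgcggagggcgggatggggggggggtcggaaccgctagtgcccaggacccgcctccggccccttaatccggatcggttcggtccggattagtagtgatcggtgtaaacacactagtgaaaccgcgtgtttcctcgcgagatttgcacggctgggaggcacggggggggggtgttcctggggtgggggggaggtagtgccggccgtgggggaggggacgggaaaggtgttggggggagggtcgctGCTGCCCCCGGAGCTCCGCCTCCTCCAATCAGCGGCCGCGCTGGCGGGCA
Gm17315, paired with Cdc42ep3: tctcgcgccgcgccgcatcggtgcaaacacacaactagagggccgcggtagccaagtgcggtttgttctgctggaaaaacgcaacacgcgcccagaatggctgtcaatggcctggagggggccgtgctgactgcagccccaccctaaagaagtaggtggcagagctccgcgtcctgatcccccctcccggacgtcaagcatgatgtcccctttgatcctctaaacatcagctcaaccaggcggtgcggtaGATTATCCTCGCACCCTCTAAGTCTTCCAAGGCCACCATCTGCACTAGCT
1110054M08Rik, paired with Lpp: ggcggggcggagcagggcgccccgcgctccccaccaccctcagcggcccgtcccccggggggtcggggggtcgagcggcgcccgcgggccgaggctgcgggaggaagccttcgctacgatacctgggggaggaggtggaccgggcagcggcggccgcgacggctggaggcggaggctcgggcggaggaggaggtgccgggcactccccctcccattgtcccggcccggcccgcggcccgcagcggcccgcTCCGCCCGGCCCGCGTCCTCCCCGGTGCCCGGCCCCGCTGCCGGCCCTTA
4930414L22Rik, paired with Mat2a: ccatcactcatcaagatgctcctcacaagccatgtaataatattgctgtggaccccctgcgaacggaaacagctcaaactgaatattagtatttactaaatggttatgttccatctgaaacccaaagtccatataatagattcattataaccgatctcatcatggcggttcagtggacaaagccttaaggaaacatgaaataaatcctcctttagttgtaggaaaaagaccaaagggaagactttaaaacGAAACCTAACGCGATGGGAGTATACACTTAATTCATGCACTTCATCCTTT
5033417F24Rik, paired with Dusp28: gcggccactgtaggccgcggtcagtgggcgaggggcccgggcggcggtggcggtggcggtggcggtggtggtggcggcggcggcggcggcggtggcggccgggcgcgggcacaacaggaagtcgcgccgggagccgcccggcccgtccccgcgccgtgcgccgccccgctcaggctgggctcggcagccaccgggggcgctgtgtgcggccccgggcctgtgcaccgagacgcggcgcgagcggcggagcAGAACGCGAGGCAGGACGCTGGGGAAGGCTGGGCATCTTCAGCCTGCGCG
The window of AA543186 lies at chr2:25332522-25332821 on the minus strand, and its start is 172 bases in front of the start of Man1b1, an endoplasmic reticulum mannosidase gene. That of 1700052K11Rik lies at chr11:105181384-105181683 on the minus strand, 94 bases in front of the start of Tlk2, a chromatin kinase gene. Gm17315 (chr17:79354449-79354748, plus strand) starts 392 bases inside Cdc42ep3, whose product is an effector of the small GTPase Cdc42. The RefSeq name of 1110054M08Rik is Lppos (chr16:24393606-24393905, minus strand), and it starts 305 bases inside Lpp, a LIM protein gene of focal adhesions. The RefSeq name of 4930414L22Rik is Particl (chr6:72438433-72438732, plus strand), and it starts 873 bases inside Mat2a, the S-adenosylmethionine synthetase gene. 5033417F24Rik (chr1:92910640-92910939, minus strand) starts 3700 bases downstream of the start of Dusp28, a gene 1632 bases long. AA543186 and 1700052K11Rik lie on the strand opposite their partner and start in front of it, so from these RefSeq starts they run away from the gene and do not overlap it; the lncRNA table nevertheless calls them natural antisense.

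Among the 123 member and gene pairs that could be placed in this way, the antisense start lay within the first 1000 bases of the sense gene in 47, beyond the sense end in 37, deeper inside the gene in 25 and before the sense start in 14. The last 14 pairs are divergent by their RefSeq starts, whatever the table calls them. In 20 pairs the starts of both transcripts were within 300 bases of each other. Where a gene had several RefSeq windows, the combination with the nearest starts was taken. The positions, the close pairs and the windows were thus chosen for nearness where there was a choice. A window matched by symbol is that of the gene and not of the isoform measured. The windows of members were rich in G and C: over 87 distinct windows the median GC content was 61.3% and the median number of CpG dinucleotides 21, against 52.7% and 7 over all 32851 windows in the RefSeq table. The medians were 67.3% and 33 CpG for starts in front of the sense gene, 61.3% and 21 for starts in its first 1000 bases, 59.7% and 18.5 beyond its end and 55.7% and 6 deeper inside. Windows near a sense promoter share bases with it, so these figures are not independent of the coding genes' own promoters. The letters TATAAA, on either strand, occurred in 3 of the 87 member windows (3.45%), those of 9330020H09Rik, Gm13594 and Hoxa11os, against 13.6% of all windows. The CArG box, the binding motif of serum response factor, was searched on both strands and occurred in 1 window (1.15%), that of D230017M19Rik, against 1.63% of all windows. None of the 6 printed windows held either motif.

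Most natural antisense transcripts were scarce. Their median level was 0.331 FPKM over the 6 libraries, against 0.606 FPKM for all lncRNA transcripts tested, 0.570 for intergenic, 0.385 for intronic antisense and 0.373 for bidirectional transcripts. The median member had 5.67 fragments per library over a median length of 1808 bases. Each library held between 595 and 609 members at 0.1 FPKM or more, and 350 members reached that level in all 6. Leaving out Xist and the mitochondrial chromosome, the summed level of the members was 663, 667 and 665 FPKM in the ADV libraries and 645, 670.1 and 621 FPKM in the Ctrl libraries, so the groups overlapped in the total amount of antisense RNA. By annotation 539 members were of the class long noncoding, 77 antisense, 76 processed transcript and 49 lincRNA. The members were paired with 698 coding genes, 87 of them with 2 or more members, and 51 members were paired with 2 or more genes.

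Where the sense gene was itself expressed, it was more abundant than its antisense transcript in most pairs. Each pair sets a single antisense transcript against a whole gene, and the level thresholds differ, at 0.1 FPKM for transcripts and 0.5 FPKM for genes. Of 806 pairs, 651 had a sense gene tested in the mRNA table (at least 0.5 FPKM in 3 or more libraries), and in 619 of these the antisense level was below the sense level in all 6 libraries. With 0.1 FPKM added to both levels, the median log2 ratio of antisense to sense was -5.40, with quartiles of -6.57 and -3.74. The median levels were 0.317 FPKM for the antisense and 17.2 FPKM for the sense partner. Across the pairs, the levels of both were only weakly related (Pearson r = 0.154 for log2 levels, Spearman rho = 0.065), over pairs that share libraries and, in part, genes. Actb, the cytoplasmic beta-actin gene, stood at 2183, 2161 and 2270.4 FPKM in ADV and 1878, 1890.1 and 1904 FPKM in Ctrl. Its antisense transcript AK142426 held 0.496, 0.499 and 1.61 FPKM in ADV and 0.919, 0.973 and 0.431 FPKM in Ctrl. Other abundant sense genes, such as mt-Co1 and Lox below, had antisense transcripts at higher levels. The antisense level was above the sense level in every library in only 8 of the 651 pairs, and in 24 the order differed between libraries.

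**Figure D1:**
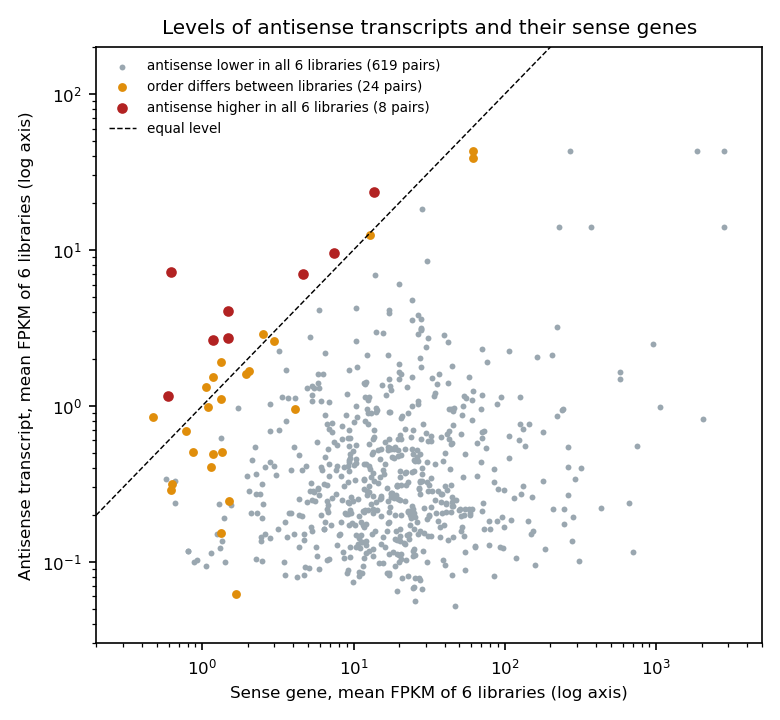
Mean level of each antisense transcript (y axis, FPKM, log scale) against that of its sense gene (x axis, FPKM, log scale) in 651 pairs, with the line of equal level. The 619 pairs whose antisense was lower in all 6 libraries fill the area under the line, and 8 pairs lie above it in all 6.

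The 8 antisense transcripts that outweighed their sense gene included some of the best counted members. 4632419I22Rik, opposite the Integrator subunit gene Ints2, held 23.7, 24.4 and 22.1 FPKM in ADV and 23.4, 24.5 and 23.0 FPKM in Ctrl, with Ints2 at 12.8 to 15.1 FPKM. BC049805, opposite the prostaglandin E receptor gene Ptger1, averaged 7.26 FPKM against 0.625 FPKM for the receptor. The others were AK047205 (9.57 against 7.41 FPKM for Phykpl), AK086315 (7.05 against 4.61 FPKM for the splicing regulator Rbm4b), AK045025 and AK143266 (4.07 and 2.71 against 1.49 FPKM for the monocarboxylate transporter gene Slc16a4), B130055M24Rik (2.63 against 1.18 FPKM for Zfp689) and a noncoding Trmt61b transcript (1.16 against 0.594 FPKM for the cell cycle regulator Spdya). None of the 8 was called between the groups. Where the sense gene reached 0.5 FPKM in fewer than 3 libraries (136 pairs), the antisense transcript was the more abundant in all 6 libraries in 64. BC029722, opposite the membrane metalloproteinase gene Mmp24, is one: it held 16.4, 19.7 and 23.5 FPKM in ADV and 17.1, 17.6 and 15.5 FPKM in Ctrl, with Mmp24 below 0.1 FPKM in every library.

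As a set, the antisense transcripts did not move in 1 direction between ADV and Ctrl. Their median log2 fold change on log2(FPKM + 0.1) was 0.01, against 0.00351 for all lncRNA transcripts, with 377 members above and 364 below 0. The groups did not overlap for 160 members (21.6%), against 23.3% of all lncRNA transcripts tested. Limma with an intensity trend, fitted on all 4955 lncRNA transcripts with Benjamini-Hochberg adjustment at 0.05, called 24 of 741 members (3.24%), 14 higher and 10 lower in ADV. Over all lncRNA transcripts 4.26% were called, 2.22% higher and 2.04% lower, so the share among antisense transcripts was near the background, as it was for bidirectional (5.61%), intronic antisense (4.47%) and intergenic transcripts (4.02%). With quantile normalization 15 were higher and 6 lower. For a single transcript, an exact permutation test of 3 against 3 libraries cannot give a p below 0.1.

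The 24 calls rested on very few fragments. All 24 reached 0.1 FPKM in the 3 libraries of 1 group and in no library of the other, as did 48 members in all. Such a member passed the level threshold only through the group where it is high, so it had to differ between the groups. The limma p-values and the folds of the 24 are therefore given as a description of them and support no change. In 22 of them every library of the lower group held 0 fragments. Over all 24, the higher group's 3 libraries together held 3.0 to 25.6 fragments, with a median of 8.5. Among the 508 members with a mean under 10 fragments per library 24 were called, and among the 233 with 10 or more 0 were called (23 at an unadjusted limma p below 0.05, 15 by edgeR). The same split over all lncRNA transcripts gave 6.13% and 2.03% called. EdgeR's quasi-likelihood test on fragments called 0 of the 741 members, with 81 at an unadjusted p below 0.05, among them all 24, and a smallest adjusted p of 0.184 for the 24; over all lncRNA transcripts it called 0.0202%. DESeq2 called 1 member (1.23% of all lncRNA transcripts), an Xist isoform that limma did not call.

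**Figure D2:**
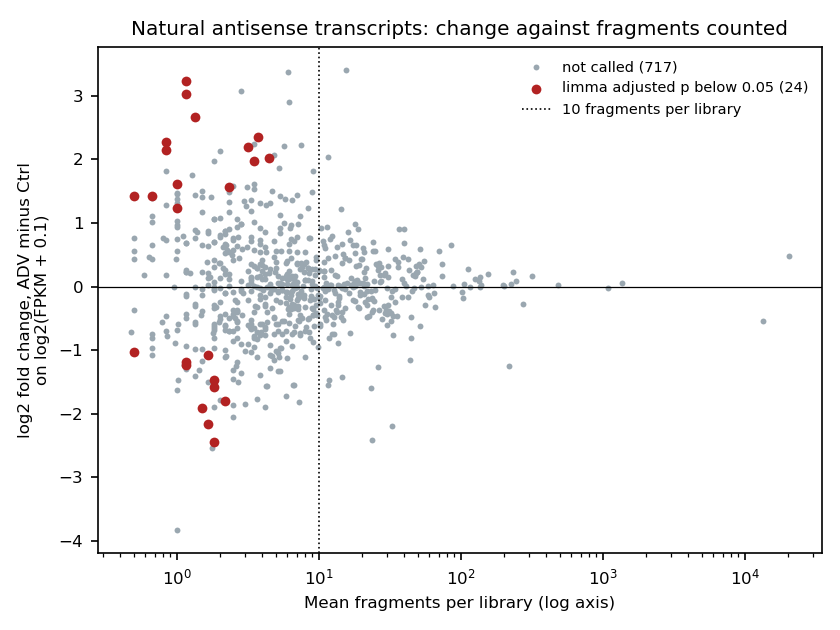
Log2 fold change of each of the 741 antisense transcripts (y axis, ADV minus Ctrl on log2(FPKM + 0.1)) against its mean fragments per library (x axis, log scale). The 24 called transcripts all lie left of the dotted line at 10 fragments.

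Among the transcripts higher in ADV, those with the smallest p were detected in ADV alone. AK009658, opposite Dfna5 (the pore-forming gasdermin E), had 3, 2 and 2 fragments in ADV, that is 1.07, 0.716 and 0.785 FPKM, and 0 in each Ctrl library. Set against the 3 fragments over a group that a count of 0 allows, it was at least 2.59-fold higher (limma adjusted p = 0.0107, edgeR adjusted p = 0.244). Here and below, "at least" covers only the group at 0. The fragments of the higher group are taken as counted, without their counting error. Gm17092, opposite Hnrnpd (the AU-rich element binding protein AUF1), had 0.580, 0.392 and 0.664 FPKM from 3, 2 and 3 fragments against 0, at least 2.96-fold higher (limma adjusted p = 0.0132). AK015033, opposite the mitochondrial chaperone gene Hspa9 on chromosome 18, had more fragments, 4.3, 10.0 and 8.0 against 0, and was at least 8.22-fold higher, with 0.232, 0.556 and 0.517 FPKM in ADV (limma adjusted p = 0.0259). Its sense gene Hspa9 held 203 to 210.1 FPKM in ADV and 201 to 213 FPKM in Ctrl. Gm17315, which starts 392 bases inside Cdc42ep3, had 5, 4 and 5 fragments against 0 (0.198, 0.162 and 0.237 FPKM in ADV), at least 5.18-fold higher (limma adjusted p = 0.0239).

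Smaller numbers of fragments lay behind the upward calls of AK031897, AK160206, AK016256 and Gm26626. AK031897, opposite Tmem62, and AK160206, opposite the nuclear import receptor gene Ipo8, each had 2 fragments in every ADV library and 0 in every Ctrl library (0.195, 0.198 and 0.229 FPKM, and 0.126, 0.128 and 0.150 FPKM, in ADV). AK016256, opposite 2010012O05Rik, had 1, 2 and 2 fragments against 0, at 0.204, 0.413 and 0.465 FPKM in ADV. Gm26626, opposite the transcription factor gene Runx1, was called on 1 fragment in each ADV library (0.160, 0.162 and 0.185 FPKM) and 0 in Ctrl, which is at the limit that a count of 0 allows, so no fold is given. In the order AK031897, AK160206, AK016256 and Gm26626, the limma adjusted p was 0.0193, 0.0301, 0.0262 and 0.0239. Outside the naming rule, AK053186 (opposite Cyfip1, a subunit of the WAVE actin regulator) and AK083766 (opposite Mettl20) were the 2 called members with fragments in both groups. AK053186 had 6, 6 and 7 fragments against 1, 0 and 1, and AK083766 had 13.8, 7.1 and 4.6 against 1.1, 0 and 0.

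The transcripts lower in ADV were detected in Ctrl alone. AK053791, opposite Polm, the DNA polymerase mu gene of end joining, had 4, 5 and 4 fragments in Ctrl (0.224, 0.296 and 0.232 FPKM) and 0 in ADV, and was at least 3.90-fold lower in ADV (limma adjusted p = 0.0182; edgeR adjusted p = 0.212). Gm15063, opposite the small GTPase gene Rab39b, had 2, 4 and 5 fragments in Ctrl (0.251, 0.531 and 0.635 FPKM) against 0, at least 3.30-fold lower (limma adjusted p = 0.0259). AA543186, which starts in front of Man1b1, had 3, 2 and 2 fragments in Ctrl and 0 in ADV (at least 2.10-fold lower, limma adjusted p = 0.0360; named, like the next transcript, after its values were seen). AK154638, opposite the elastic fibre gene Efemp2 (fibulin-4), had 6, 2 and 2 fragments in Ctrl and 0 in ADV, at 0.684, 0.241 and 0.231 FPKM (at least 3.0-fold lower, limma adjusted p = 0.0492). Efemp2 itself stood at 94.2 to 101.8 FPKM in ADV and 92.1 to 95.7 FPKM in Ctrl, groups that overlap (limma adjusted p = 0.642).

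At Dusp28, an atypical phosphatase gene, 2 antisense transcripts were called in opposite directions. AK017177 had 6, 4 and 9 fragments in ADV and 0 in Ctrl (0.331, 0.224 and 0.591 FPKM; at least 7.03-fold higher, limma adjusted p = 0.0303). 5033417F24Rik, whose start lies beyond the end of the gene, had 0 in ADV and 3, 5 and 3 fragments in Ctrl (0.161, 0.283 and 0.166 FPKM; at least 3.30-fold lower in ADV, limma adjusted p = 0.0309). Summed, they came to 0.331, 0.225 and 0.591 FPKM against 0.161, 0.283 and 0.166 FPKM, and the groups overlapped. Dusp28 held 3.08, 1.38 and 3.39 FPKM in ADV and 2.32, 2.31 and 2.45 FPKM in Ctrl (limma adjusted p = 0.947).

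**Figure D3:**
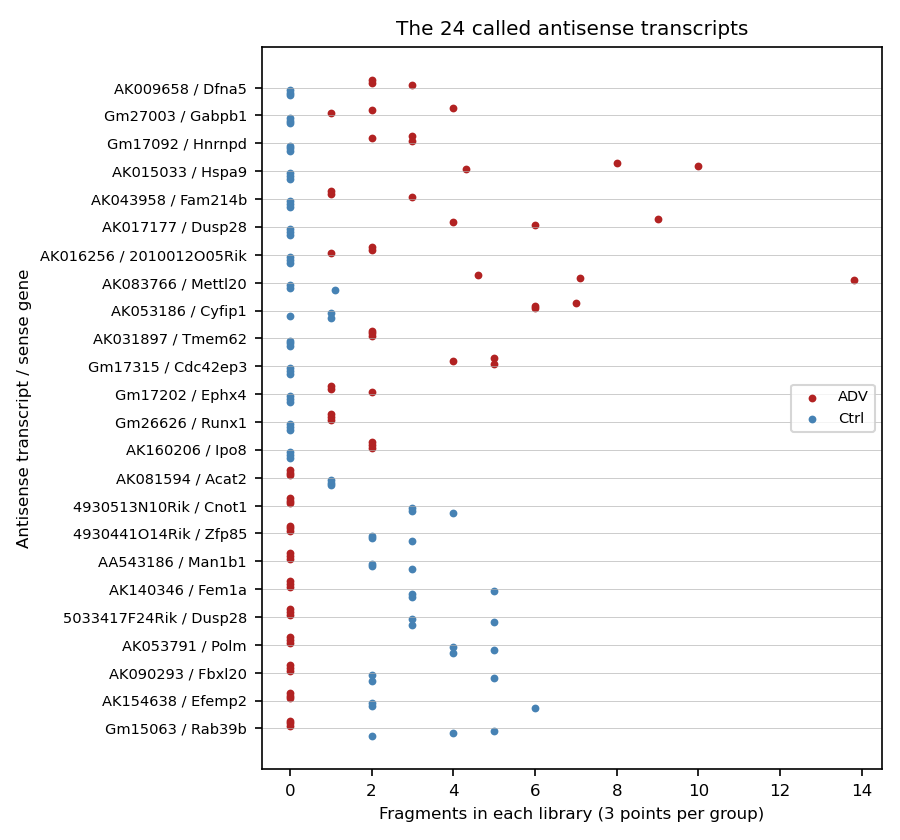
Fragments in each of the 6 libraries (x axis) for the 24 called antisense transcripts, each named with its sense gene (y axis), ADV in red and Ctrl in blue, 3 points per group. In 22 rows all points of 1 group are at 0, and no point exceeds 13.8 fragments.

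The sense genes opposite the called transcripts did not pass. Of their 21 tested sense genes 0 were called by limma, with log2 fold changes from -0.35 to 0.59 and a smallest adjusted p of 0.0813. Limma called 3.44% of all genes tested, and at that share 0 of 21 shows nothing particular to these genes. The ratio of antisense to sense was tested directly over all 2784 pairs of a tested transcript and a tested gene, of any relationship. It was called in 3 of the 651 antisense pairs (0.461%), all with a higher ratio in ADV, against 1.98% of all pairs (1.11% with a higher and 0.862% with a lower ratio); 82 antisense pairs had an unadjusted p below 0.05. The 3 were AK009658 with Dfna5, Gm17092 with Hnrnpd and AK015033 with Hspa9. All have 0 antisense fragments in Ctrl and passed the level threshold through ADV alone, so these calls too are only a description, and no size is given for the ratio: for AK009658 its fitted log2 change was 3.58 with the 0.1 FPKM added before the logarithm, 6.76 with 0.01 and 1.20 with 1. Dfna5 held 9.51, 10.2 and 7.62 FPKM in ADV and 11.8, 11.8 and 10.9 FPKM in Ctrl, and Hnrnpd 136, 122 and 123 against 134, 134 and 113.

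Better counted antisense transcripts showed smaller differences, none past the threshold. The values that follow were chosen after they were seen, as the smallest p among the 233 members with 10 or more fragments per library, of which 15 leaned higher and 8 lower at an unadjusted p below 0.05. AK033298, opposite Rmnd1, a mitochondrial translation gene, held 0.304, 0.310 and 0.259 FPKM in ADV and 0.884, 0.933 and 1.04 FPKM in Ctrl, from 5 to 7 against 22 to 25 fragments (log2 fold change -1.43, SE 0.29, limma adjusted p = 0.0563; edgeR adjusted p = 0.177). Rmnd1 overlapped between the groups, at 7.91 to 11.3 against 8.33 to 10.5 FPKM. 1700052K11Rik, which starts 94 bases in front of Tlk2 and runs away from it, held 4.38, 4.13 and 4.74 FPKM in ADV and 3.10, 2.42 and 2.86 FPKM in Ctrl, from 96 to 106 against 60 to 81 fragments (log2 0.65, SE 0.16, limma adjusted p = 0.108). Tlk2 stood at 25.8 to 29.5 against 26.9 to 30 FPKM. AK042594, opposite the phosphate transporter gene Slc20a1, held 1.27, 1.39 and 1.26 FPKM against 0.731, 0.566 and 0.555 FPKM (log2 0.98, SE 0.25, limma adjusted p = 0.113), and Slc20a1 38.1 to 48.3 against 41.0 to 49.2 FPKM. In these 3 pairs the antisense groups did not overlap and the sense groups did, but the ratio was not called (limma adjusted p = 0.106, 0.213 and 0.101).

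The most abundant members were isoforms of Xist, the RNA that coats the inactive X chromosome, which the table pairs with the predicted gene Gm26992. The Ensembl isoform held 130.005, 120.2 and 123 FPKM in ADV and 85.9, 103 and 80.6 FPKM in Ctrl, with no overlap (log2 fold change 0.48, SE 0.11, limma adjusted p = 0.0904). The RefSeq isoform NR_001463 was the other way round, at 54.8, 64.3 and 48.1 FPKM in ADV and 88.6, 72.9 and 81.7 FPKM in Ctrl (log2 -0.55, SE 0.14, limma adjusted p = 0.112; DESeq2 adjusted p = 0.0446). A short isoform, NR_001570, held 0.161, 0.243 and 0.176 FPKM against 0.0937, 0 and 0. Summed over the 3 isoforms, Xist came to 180.4 ± 7.81 FPKM in ADV and 170.9 ± 7.51 FPKM in Ctrl (SD, n = 3), with 171 to 185 against 162 to 176 FPKM, so the totals overlapped. Their fragment numbers are not whole (25275.6 and 10745.2 in the first ADV library, for example), so fragments were divided between isoforms by estimation, and the level of each is less certain than the sum.

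The next most abundant were antisense to mitochondrial genes. AK140152, opposite mt-Co1, a cytochrome c oxidase subunit gene, held 2.85, 83.9 and 86.7 FPKM in ADV and 65.1, 51.0 and 70.7 FPKM in Ctrl, so 1 ADV library lay far below the other 5. The mitochondrial copy of AK141672, opposite mt-Co3, mt-Nd3 and mt-Nd4l, fell short in the same library, at 1.39, 58.5 and 66.4 FPKM against 53.0, 27.9 and 52.6 FPKM. Another such transcript, AK141702, was at 0, 20.9 and 13.1 FPKM against 19.8, 11.4 and 18.3 FPKM. The sense gene mt-Co1 was not low in that library, at 7258, 5750 and 6002 FPKM in ADV and 5679, 6030.1 and 5591 FPKM in Ctrl. A near-identical nuclear copy of AK141672 on chromosome 1 held 41.6, 42.9 and 32.6 FPKM against 38.3, 43.9 and 32.7 FPKM, and how reads were divided among such copies is not known. None of these was called (limma adjusted p from 0.626 to 0.955). AK082289, opposite 4930533K18Rik, was level at 25.6, 26.5 and 22.3 FPKM against 25.7, 28.6 and 19.9 FPKM.

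**Figure D4:**
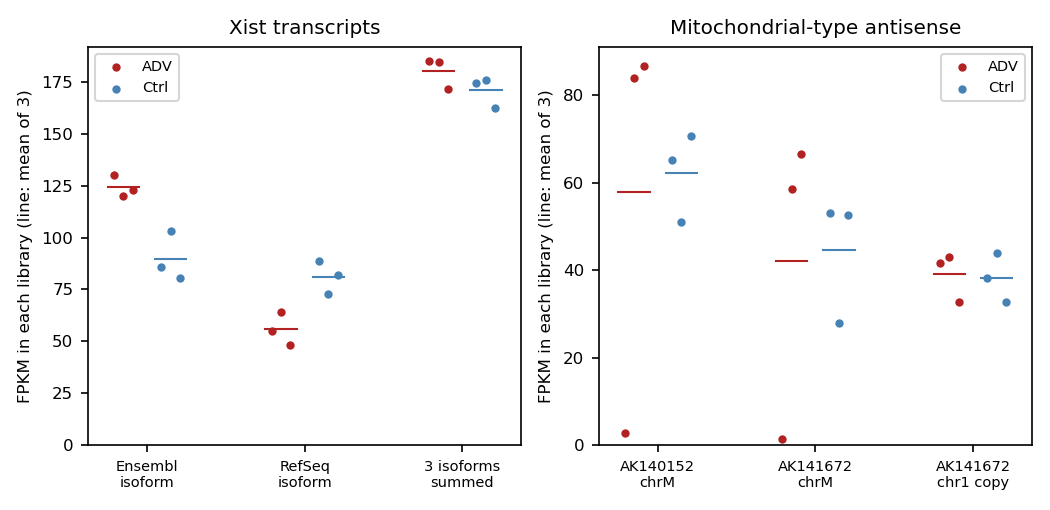
FPKM in each library (y axis) for Xist isoforms and their sum (left) and for mitochondrial-type antisense transcripts (right), ADV in red and Ctrl in blue, with a line at the mean of 3. The Ensembl and RefSeq isoforms of Xist lie apart in opposite directions while their sums overlap, and the first ADV library is near 0 for both chrM transcripts.

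Eps8l3 gave another case in which isoforms of 1 antisense gene had values on opposite sides, none of them called. This actin regulator gene, below 0.5 FPKM here, has 5 antisense members. One 4933431E20Rik isoform held 0.417, 0.0255 and 0.316 FPKM in ADV and 1.25, 1.91 and 0.851 FPKM in Ctrl (log2 -2.19, SE 0.64, limma adjusted p = 0.168), and another 3.47, 1.68 and 1.74 FPKM against 1.25, 1.32 and 0.823 FPKM (log2 0.91, SE 0.36, limma adjusted p = 0.289). The 5 together came to 6.15, 5.73 and 5.08 FPKM in ADV and 5.87, 6.41 and 5.99 FPKM in Ctrl.

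The sense partners themselves moved at about the rate of all genes. Limma on the whole mRNA table called 24 of 564 tested partner genes (4.26%), 10 higher and 14 lower in ADV, against 3.44% of all 11612 genes tested (1.83% higher and 1.61% lower). The median log2 fold change was -0.0176 for partner genes and -0.00984 for all genes, and the groups did not overlap for 28% of partner genes and 28.9% of all genes. EdgeR called 62 partner genes, 32 higher and 30 lower (11%, against 9.78% of all genes, 5.32% higher and 4.46% lower), among them 19 of the 24 in the same direction; the 5 it did not call were Recql, Vps29, Eno1, Srsf4 and Gsk3b. The 25 antisense members opposite the 24 called genes were called by neither tool. Of all members limma called 3.24% and edgeR 0, so 0 of 25 is near the share of all members. In limma 0 of the 25 reached an unadjusted p below 0.05, against 13.9% of all members, and the smallest adjusted p was 0.315. Leaving out replicate 3 of both groups, a setting added after the data were seen, left 3 called partner genes.

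Of the partner genes that fell in ADV, Dusp12, a dual-specificity phosphatase gene, changed most, at 4.01, 4.57 and 3.88 FPKM in ADV and 9.60, 10.2 and 10.0 FPKM in Ctrl (log2 -1.24, SE 0.10, limma adjusted p = 0.00326). Its antisense transcript Gm9929 held 0, 0 and 0.372 FPKM against 0.0579, 0.367 and 0.239 FPKM, from 0 to 6 fragments, with overlap. Recql, a DNA helicase gene, stood at 9.95, 9.47 and 8.08 FPKM against 16.8, 16.7 and 15.3 FPKM (log2 -0.82, SE 0.10, limma adjusted p = 0.0106), but its fragments gave a log2 fold change of only -0.16 (edgeR adjusted p = 0.292). Antisense AK035123 held 0.516, 0.621 and 0.280 FPKM against 0.824, 0.458 and 0.720 FPKM. Rhob, a small GTPase gene of endosomes and actin, fell from 101.9, 99.6 and 100.7 to 83.3, 76.7 and 78.6 FPKM (log2 -0.34, SE 0.04, limma adjusted p = 0.0141), with AK143170 opposite it at 0.280, 0.475 and 0.224 against 0.173, 0.425 and 0.180 FPKM.

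Among the other partner genes that fell, the retromer subunit gene Vps29 stood at 76.9, 89.2 and 85.0 FPKM against 109.7, 110.4 and 114 FPKM (log2 -0.41, SE 0.06, limma adjusted p = 0.0186; edgeR log2 -0.15). Its antisense AK135699 had 0 to 2 fragments per library. The glycolytic gene Eno1 stood at 988, 977 and 974 FPKM against 1110.2, 1143 and 1157 FPKM (log2 -0.21, SE 0.03, limma adjusted p = 0.0235), but its fragments gave a log2 fold change of -0.10 (edgeR adjusted p = 0.0511). Opposite it AK019820, which the table places at more than 1 site, held 1.01, 1.02 and 1.18 against 0.816, 0.738 and 1.18 FPKM. The origin recognition gene Orc1 (log2 -0.70), the ribonucleotide reductase gene Rrm2 (log2 -0.27), E2f8 (log2 -0.41), the linker histone gene Hist1h1d (log2 -0.24), the RNA helicase gene Ddx39b (log2 -0.43) and the splicing factor gene Srsf4 (log2 -0.42) also fell, as did Cul5, Zfp367 and Psmd11, all named after their values were seen. Their antisense transcripts ranged from a log2 fold change of -1.02 for AK161420, opposite Zfp367, to 0.77 for Gm16124, opposite Cul5.

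Of the partner genes that rose, B3gnt2, which builds poly-N-acetyllactosamine chains, changed most. It stood at 22.2, 24.8 and 25 FPKM in ADV and 11.1, 9.92 and 10.1 FPKM in Ctrl (log2 1.20, SE 0.08, limma adjusted p = 0.00134; edgeR log2 0.52, adjusted p = 0.0133). Opposite it 9130230N09Rik had 2 fragments in 1 ADV library and in 2 Ctrl libraries and 0 in the others. Cfb, the complement factor B gene, rose from 24.4, 27.4 and 26 to 37.0, 36.7 and 34.1 FPKM (log2 0.47, SE 0.06, limma adjusted p = 0.0159). Its antisense AK131699, which is also paired with Gm20547, held 2.17, 2.40 and 3.16 against 3.28, 2.69 and 2.53 FPKM. Lhfp rose from 72.9, 72.0 and 70.9 to 86.1, 84.9 and 84.6 FPKM (log2 0.24, SE 0.04, limma adjusted p = 0.0235), with AK028923 opposite it at 0.156 to 0.221 against 0.142 to 0.210 FPKM.

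Lpp and Actb, both genes of the actin cytoskeleton, also rose (named after their values were seen). Lpp stood at 48.9, 48.0 and 46.4 FPKM against 39.5, 39.0 and 35.9 FPKM (log2 0.33, SE 0.05, limma adjusted p = 0.0286). Of its 2 antisense members, Lppos (NR_037954) held 0.172, 0.0853 and 1.77 FPKM in ADV and 1.22, 1.52 and 0.993 FPKM in Ctrl, and a longer isoform 0.974, 0.697 and 0.271 against 0.604, 0.594 and 0.542 FPKM. Together they came to 1.15, 0.782 and 2.04 against 1.82, 2.11 and 1.53 FPKM, with overlap. The remaining partner genes that rose were the autophagy gene Map1lc3a (log2 0.78), the antigen loading gene Tapbp (log2 0.23), Frg1 (log2 0.45), the kinase gene Gsk3b (log2 0.24) and the protocadherin gene Pcdh7 (log2 0.23). Opposite Pcdh7, AK034221 did not pass, at 0.188, 0.168 and 0.141 against 0.305, 0.345 and 0.273 FPKM, groups that do not overlap (log2 -0.62, SE 0.32, limma adjusted p = 0.422).

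**Figure D5:**
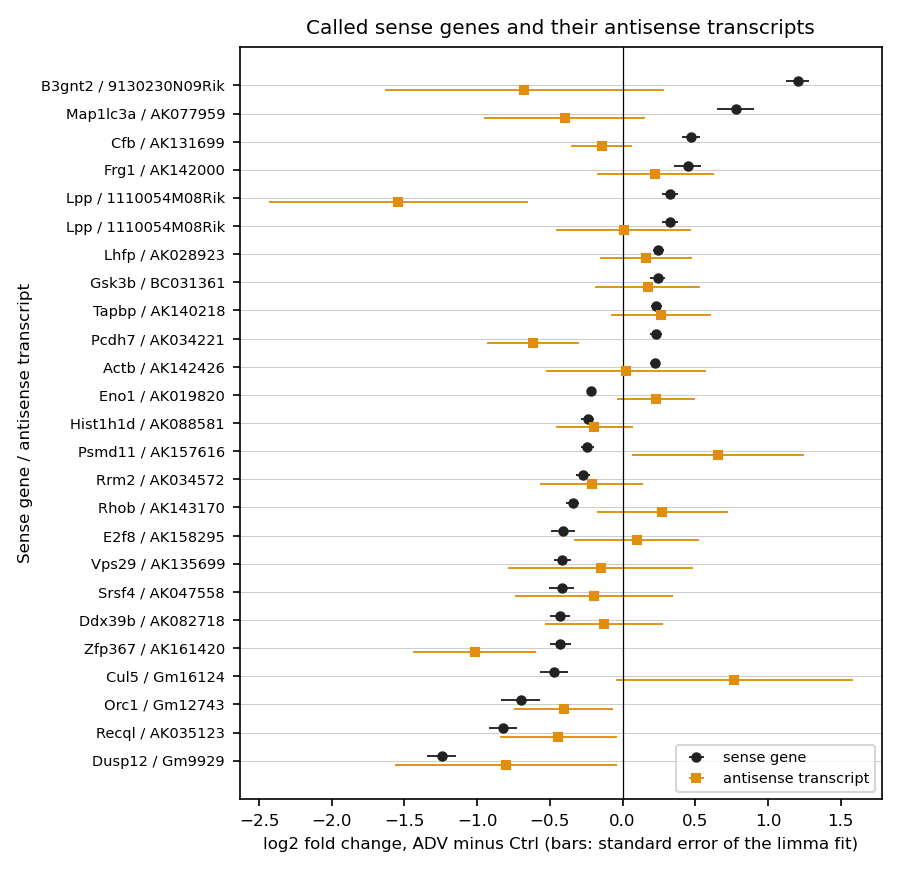
Log2 fold change (x axis, ADV minus Ctrl, bars are the standard error of the limma fit) of the 24 called sense genes (black circles) and of the antisense transcripts opposite them (orange squares), 1 row per pair. Sense genes run from -1.24 (Dusp12) to 1.20 (B3gnt2), while the antisense points lie on both sides of 0 in each direction with wider bars.

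Genes of contraction and of the aortic wall were looked up among the sense partners, in a list made after values were seen. Of 39 such genes 6 had a member, and Myocd had none. Tagln, the actin-binding transgelin of smooth muscle, stood at 8.39, 5.49 and 8.69 FPKM in ADV and 0, 0.260 and 1.65 FPKM in Ctrl (limma adjusted p = 0.0555; edgeR adjusted p = 0.00260). Its antisense AK028131 held 0.517, 0.833 and 1.03 FPKM against 1.20, 1.14 and 0.992 FPKM, from 12 to 30 fragments (log2 -0.48, SE 0.31, limma adjusted p = 0.529). Particl held 1.43, 0.701 and 1.07 FPKM in ADV and 1.23, 0.983 and 1.17 FPKM in Ctrl, while Mat2a, a gene mutated in heritable aortic disease, stood at 57.3, 58.2 and 50.9 against 66.3, 68.3 and 61.2 FPKM (limma adjusted p = 0.106; edgeR adjusted p = 0.0279). Opposite Lox, the lysyl oxidase gene of elastic fibres, AK084265 held 17.8, 13.7 and 14.6 against 17.5, 14.1 and 6.86 FPKM, and Lox 218 to 235 against 218 to 233 FPKM. Opposite Col5a1, a fibrillar collagen gene, 2810430I11Rik held 0.793, 0.779 and 0.985 against 0.969, 0.442 and 0.573 FPKM. The 2 members at Notch1, both of 0610009E02Rik, had 0 to 5.3 fragments per library.

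Symbols of well-known antisense RNAs and of some other lncRNAs were looked up among the members. Of 42 symbols, 3 had members: Xist, Kcnq1ot1 and Hoxa11os. The others could still be present in another class or below the level threshold. Kcnq1ot1, the long imprinted RNA that silences genes around the potassium channel gene Kcnq1, was level at 1.51, 1.5 and 1.56 FPKM in ADV and 1.54, 1.36 and 1.47 FPKM in Ctrl, from 1194 to 1539 fragments per library (log2 0.06, SE 0.18, limma adjusted p = 0.901). Kcnq1 itself was at or below 0.0985 FPKM in every library. Hoxa11os, opposite the homeobox gene Hoxa11, was measured as 2 isoforms, at 0.139, 0.217 and 0.370 against 0.272, 0.123 and 0.177 FPKM and at 0.327, 0.102 and 0.350 against 0.907, 0.328 and 0.225 FPKM. Hoxa11 stood at 14, 11.8 and 12.1 against 14, 14 and 15.2 FPKM (limma adjusted p = 0.261).

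Genes that bind, edit, unwind or cut double-stranded RNA, or that carry out antisense-guided silencing, were taken as a list. Of 37 tested genes of this list 0 were called higher and 2 lower by limma, and edgeR called 0 higher and 8 lower. Over all genes limma called 1.83% higher and 1.61% lower, and edgeR 5.32% and 4.46%. The median log2 fold change of the list was -0.0983, against -0.00984 for all genes. Drosha, the nuclear RNase that opens microRNA hairpins, stood at 21.6, 22.1 and 21.8 FPKM in ADV and 27.7, 27.0 and 25.5 FPKM in Ctrl (log2 -0.29, SE 0.06, limma adjusted p = 0.0418). Oas1a, a sensor of double-stranded RNA, stood at 59.8, 57.7 and 58.6 against 71.9, 69.8 and 66.5 FPKM (log2 -0.24, SE 0.05, limma adjusted p = 0.0416). The editing enzyme gene Adar (40.3, 45.7 and 42.1 against 49.0, 49.0 and 49.2 FPKM) and the kinase gene Eif2ak2 (76.8, 81.6 and 79.7 against 90.7, 92.7 and 86.3 FPKM), itself a sense partner, did not pass limma (adjusted p = 0.0965 and 0.0819). Both passed edgeR (adjusted p = 0.0318 and 0.0305). Dicer1 (7.78, 8.46 and 7.88 against 8.88, 8.58 and 8.37 FPKM) passed neither limma nor edgeR, and Ago2 had a log2 fold change of -0.06.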

How the data were processed

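RNA was measured in 6 libraries of mouse aortic smooth muscle cells, 3 ADV and 3 Ctrl. Per the submitters' processing notes, cutadapt, HISAT2 2.0.4, Cufflinks and Cuffdiff 2.2.1 were used, and the builds mm10 and mm9 are named without roles. The authors deposited 1 table of coding genes (22565 rows; rows of 79 repeated symbols were summed) and 1 of lncRNA transcripts (56348 rows, 31550 transcripts). Both hold FPKM values, normalized by the authors. Beside them the authors deposited estimated counts; each count column is a number of fragments multiplied by 1 constant per library (0.916 to 1.20). Dividing by it gave whole numbers (within 0.01) for 90.1% to 90.4% of the gene values above 0 and for 70.3% to 71.7% of the lncRNA values; these are the fragments quoted, and below 0.05 they were taken as 0. They cover counting error only.

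The main test was limma 3.58.1 (R 4.3.3) with an intensity trend on log2(FPKM + 0.1), group only, two-sided, fitted over each whole table and adjusted by Benjamini and Hochberg; the pair test used the difference of both log2 levels. Fold changes on this scale understate low genes. EdgeR 4.0.16 and DESeq2 1.42.0 on rounded fragments, other pseudocounts, filters and scalings, a replicate block and leaving out libraries were alternatives. A fold against a group at 0 sets the fragments counted in the other group against 3 fragments in the group at 0, scaled by depth. It is a lower bound only for the fragments as counted. The counting error of the higher group and its selection by the level threshold are left out. Of 698 partner genes 680 were found by symbol. Members named are the 12 called with the smallest p, the 8 most abundant, up to 8 with a called sense gene, those with a called ratio and listed symbols. Members and lists were chosen with earlier results of these data known. Promoter windows are RefSeq's (GRCm38.p6); the tables give no start site of a transcript itself.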

Additional observations from a re-analysis of the deposited data

How the results depend on the processing

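The number of antisense transcripts called (24) depended on the setting. It was 32 with a pseudocount of 0.01 and 4 with 1, 5 with no filter, 1 with a filter of 0.5 FPKM, 11 with robust estimation, 21 with quantile normalization, 27 without the trend, 33 with transcripts that are natural antisense in any pairing, 9 when antisense transcripts were summed per coding gene, 1 with DESeq2 and 0 with edgeR (0 also with edgeR's own filter). Leaving out 1 library gave 0 to 17: 8, 0 and 17 without ADV replicate 1, 2 or 3 and 3, 3 and 4 without Ctrl replicate 1, 2 or 3. Called partner genes (24) numbered 62 with edgeR (63 with its own filter), 39 with DESeq2 and 5 without the trend. Leaving out 1 library gave 2 to 9 (5, 4 and 9 without ADV 1, 2 or 3; 2, 2 and 9 without Ctrl 1, 2 or 3), and leaving out both replicate 3 libraries gave 3 (23 transcripts, 0 ratios). Called ratios (3) numbered 28 with a pseudocount of 0.01, 0 with 1, 12 without the trend, 1 with both levels at 0.5 FPKM or more, and 0 to 4 without 1 library (4, 2 and 4 without ADV 1, 2 or 3; 0, 0 and 3 without Ctrl 1, 2 or 3). Same-numbered libraries did not deviate together (correlations 0.0375, -0.0039 and 0.0999 for genes, 0.0122, -0.0062 and 0.0264 for lncRNA transcripts), so the numbers were not taken as pairs; with the replicate block 0 transcripts, 16 genes and 0 ratios were called. Over the named items, no direction reversed in the settings run: 80 values of transcripts stayed on the same side of the threshold and 113 lost their call, against 92 and 44 for genes and 22 and 18 for ratios. B3gnt2 and Dusp12 were called in all 17 settings run for them. The 3 alternatives chosen after seeing the data were the sum per coding gene, the omission of both replicate 3 libraries and edgeR's own filter. The median of 5.67 fragments per library limits what a single antisense transcript can show.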
